A study of Mus musculus with 12 samples.

Results

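The KO-M/V transcripts compare forebrain RNA of Shank2-mutant mice given memantine (KO-Mem) with that of mutants given vehicle (KO-Veh), and were taken as all genes whose mean over these mice reached 10. They use 6 of the 12 mice of the series, 3 per group, and 17707 of the 19312 genes in the deposited table were tested. All 6 mice were male, carried a homozygous deletion of Shank2 exons 6 and 7 on a C57BL/6N background, and were sampled at postnatal day 25, each as an individual animal. KO-Mem mice received oral memantine at 20 mg/kg in 2 doses per day over postnatal days 7 to 21, and KO-Veh mice received the 0.1% saccharin vehicle on the same schedule, so the samples were taken after dosing had ended. The remaining 6 mice are wild-type mice given the same treatments (WT-Mem and WT-Veh), which share no animal with the KO-M/V comparison. Controls and treated mice thus share the deletion, and the labels name the tissue as whole brain where the methods name the forebrain.

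Memantine is an uncompetitive antagonist that blocks the open channel of the NMDA receptor, the calcium-permeable glutamate receptor of excitatory synapses. Shank2 is a scaffold protein of the postsynaptic density that links receptor complexes to the actin cytoskeleton through SAPAP and Homer proteins. The dosing window overlaps the weeks in which mouse forebrain synapses mature and oligodendrocytes form myelin, the lipid-rich sheath of axons. Myelin formation draws on the synthesis of cholesterol, of very long fatty acids and of galactolipids, and on a small number of very abundant proteins such as myelin basic protein (Mbp).

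The deletion was visible in all 6 mice: Shank2 stood at 3053, 3006 and 2723 under vehicle and 2817, 2706 and 3178 under memantine, against a mean of 8000 ± 498 in WT-Veh (SD, n = 3). Values are normalized estimated counts, scaled by the authors so that they can be compared between mice. A difference between groups is given as the mean log2(value + 1) of KO-Mem minus that of KO-Veh, with its moderated standard error (SE). Such a difference understates the change of genes with low values. Summed values were between 30373849 and 30824662 per mouse, and from 68 to 84 genes were listed at 0. The median of the low values near 1 unit was 0.874 to 1.13. Only values close to 1 entered that median, and the sums follow scaling, so neither measures depth.

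Some libraries stood apart, and list counts are therefore given also as ranges over the 6 fits that leave out 1 mouse. Cerebellar transcripts were high in KO-Veh replicate 3 only, although the methods name the forebrain without cerebellum: Pcp2, a Purkinje cell gene, was 379.7 there and 6.97 to 11.9 in the other KO mice, and Cbln3, a granule cell gene, was 745 there and 15.6 to 43.3 elsewhere. Of 22 midbrain, hindbrain and cerebellar markers, 12 were in the table and none of the Hox genes was among them. KO-Mem replicate 3 lay close to the KO-Veh mice for many of the genes described here and KO-Mem replicate 1 lay farthest from them. On the leading principal component of the 500 most variable genes (29.1% of their variance), KO-Mem replicates 1, 2 and 3 scored -20.9, -9.59 and 9.4, and KO-Veh replicates 1, 2 and 3 scored 8.5, 23.9 and -11.2. The groups therefore overlapped on that axis.

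No gene passed an adjusted p of 0.05 with all 6 mice (0 of 17707, 0%, limma with Benjamini-Hochberg adjustment). The smallest adjusted p was 0.554, shared by 801 genes, and the smallest unadjusted p was 0.000189. At an unadjusted p under 0.05 there were 769 genes higher in KO-Mem (4.34%) and 804 lower (4.54%), together 8.88% of the genes tested. Every KO-Mem mouse was above every KO-Veh mouse for 1257 genes (7.1%) and below every KO-Veh mouse for 1207 (6.82%). With KO-Mem replicate 1, 2 or 3 left out, the share of all genes at that p was 2.04%, 2.48% and 9.14% higher and 2.59%, 2.92% and 9.57% lower. With KO-Veh replicate 1, 2 or 3 left out, it was 2.75%, 2.62% and 4.32% higher and 2.85%, 2.87% and 4.22% lower. The count of a gene list without a mouse is to be read against the share in that fit, which is largest without KO-Mem replicate 3. Differences were small: 78.5% of genes had a log2 difference under 0.25 in size, the median SE was 0.114, and 45 genes with a mean of at least 50 exceeded 1. Because no gene passed, genes are called higher or lower below as a description of these 6 mice, not as changed. The study itself reported a small number of differentially expressed genes for this comparison at the same adjusted p. It used DESeq2, a count model, which was not run here on the normalized values. Some of those genes are named below with the limma values. Why the calls differ was not tested.

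The genes named from here to the myelin list were picked among genes with a mean of at least 50 and no overlap between groups. Their separation therefore follows from the choice. In the upward direction the largest moderated statistic was that of Trmt9b, which encodes a putative tRNA methyltransferase (chr8:36457548-36516570, GRCm38). Its value was 314, 296 and 328 under vehicle against 473, 443 and 464 under memantine, a log2 difference of 0.56 ± 0.09 (SE, limma, unadjusted p = 0.000189). All KO-Mem values lay above all KO-Veh values, and none of the 3 KO-Mem mice stood near the vehicle range. In WT mice the mean of Trmt9b was 358 under vehicle and 346 under memantine.

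Sat1, the rate-limiting acetyltransferase of polyamine breakdown (chrX:155213132-155216449), was 869, 810.5 and 916 in KO-Veh against 1239, 1306 and 1118 in KO-Mem. The log2 difference was 0.49 ± 0.08 (SE, limma, unadjusted p = 0.000208, adjusted p = 0.554), and the groups did not overlap, as the choice required. The WT means of Sat1 were 939 and 908 under vehicle and memantine, and the genotype by memantine interaction had an unadjusted p of 0.00313. Without KO-Mem replicate 3 the adjusted p of Sat1 was 0.0415.

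Wnt10b, a secreted Wnt ligand (chr15:98770712-98778150), was 86.5, 90.2 and 88.2 in KO-Veh against 194, 142 and 155 in KO-Mem, with a log2 difference of 0.87 ± 0.16 (SE). Apaf1, the scaffold of the caspase-activating apoptosome, was 429.5, 459 and 552 in KO-Veh against 757, 692 and 667 in KO-Mem, a log2 difference of 0.56 ± 0.11 (SE). Both genes separated the groups completely, as their choice required, with unadjusted p of 0.000386 for Wnt10b and 0.000597 for Apaf1 (limma). Osbpl3, an oxysterol-binding protein of the endoplasmic reticulum, showed the tightest vehicle group of these genes, 922, 941 and 931, with 1140, 1171 and 1106 under memantine. Notch4, a Notch receptor of endothelium, was 268, 292 and 306 in KO-Veh against 371, 430.4 and 399 in KO-Mem. Pcdhgc4 and Srp54b were also among the highest moderated statistics, at log2 differences of 0.29 and 0.68, but the counting could split their reads: Pcdhgc4 shares its constant exons with the gamma-protocadherin cluster, and Srp54b has near-identical copies.

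In the downward direction, Rimklb, an enzyme that joins glutamate to N-acetylaspartate (chr6:122447296-122498761), was 1516, 1495 and 1527 in KO-Veh against 1208, 1197 and 1197 in KO-Mem. Its log2 difference was -0.33 ± 0.06 (SE, limma, unadjusted p = 0.000283, adjusted p = 0.554), and within-group spread was small in both groups. In WT mice Rimklb differed the other way, with means of 1079 under vehicle and 1307 under memantine, and its interaction had an unadjusted p of 0.00106; no interaction passed after adjustment.

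Col9a3, a chain of collagen IX (chr2:180597790-180622189), was 855, 898 and 744 in KO-Veh against 545, 539.7 and 629.8 in KO-Mem, a log2 difference of -0.54 ± 0.10 (SE, unadjusted p = 0.000429, limma). Its WT means were 984 and 935, and without KO-Mem replicate 3 its adjusted p was 0.0462. Pycard, the adaptor protein of inflammasomes, was 89.7, 100.2 and 85 in KO-Veh against 52.3, 45.3 and 46 in KO-Mem, a log2 difference of -0.92 ± 0.18 (SE). Col9a3 and Pycard each separated the groups without overlap, as their choice required. Laptm4b, a lysosomal membrane protein, Pdlim2, a PDZ and LIM domain protein, Tmbim1, a member of the BAX inhibitor family, and Ermard completed the lowest moderated statistics, with log2 differences of -0.30, -0.36, -0.49 and -0.39.

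Among genes with a mean of at least 50 and no overlap between groups, those with the largest positive differences had uneven KO-Mem mice. Matn1, a matrilin of cartilage matrix, was 17, 19 and 15.8 in KO-Veh against 128, 109 and 19.9 in KO-Mem, so that KO-Mem replicate 3 was barely above the vehicle mice. Muc1, an epithelial mucin, was 42.3, 57.7 and 60.9 in KO-Veh against 241, 86.8 and 80.8 in KO-Mem, with replicate 1 alone far above. Slc15a3, a lysosomal peptide and histidine transporter, was 38.5, 27.2 and 44.5 in KO-Veh against 101, 98.5 and 46.1 in KO-Mem. In Matn1 and Slc15a3, KO-Mem replicate 3 sat next to the vehicle range. All KO-Veh values of Matn1 and Slc15a3 were under 50, so these genes met the mean filter only through the KO-Mem mice. Their place among the largest positive differences thus follows in part from that filter. Fgfbp1, a carrier protein for fibroblast growth factors, was 56.3, 47.9 and 71.8 in KO-Veh against 139, 112 and 86.1 in KO-Mem, and its WT means ran the other way, 74.3 under vehicle and 51.5 under memantine (interaction unadjusted p = 0.000278, limma).

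At the opposite end, Steap3, a ferrireductase of iron uptake, was 214, 229.7 and 188 in KO-Veh against 63.7, 106 and 153 in KO-Mem (log2 difference -1.05 ± 0.28, SE). Bub1b, a kinase of the spindle checkpoint, was 113, 74 and 121 in KO-Veh against 72.7, 38.6 and 39.1 in KO-Mem. Slc38a5, a glutamine transporter, was 126, 127 and 184 in KO-Veh against 38.7, 96.6 and 96.7 in KO-Mem. The groups did not overlap in Steap3, Bub1b or Slc38a5, as their choice required. The lowest KO-Mem value belonged to replicate 1 in Steap3 and Slc38a5 and to replicate 2 in Bub1b.

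Myelin and mature oligodendrocyte genes formed the group with the largest share of members lower in KO-Mem. Of 53 members tested, 50 had a negative log2 difference, 34 reached an unadjusted p under 0.05 and were lower (64.2%, against 4.54% of all genes), none reached it and was higher, and 31 were below every KO-Veh mouse (against 6.82% of all genes). The median log2 difference of the list was -0.337, beside -0.001 over all genes tested. The list median in each mouse, as the deviation from the mean of the 6 mice, was 0.139, 0.203 and 0.138 in KO-Veh against -0.339, -0.108 and -0.037 in KO-Mem, with no overlap between groups. Bulk RNA cannot tell apart fewer cells of a type from less RNA per cell.

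**Figure D1:**
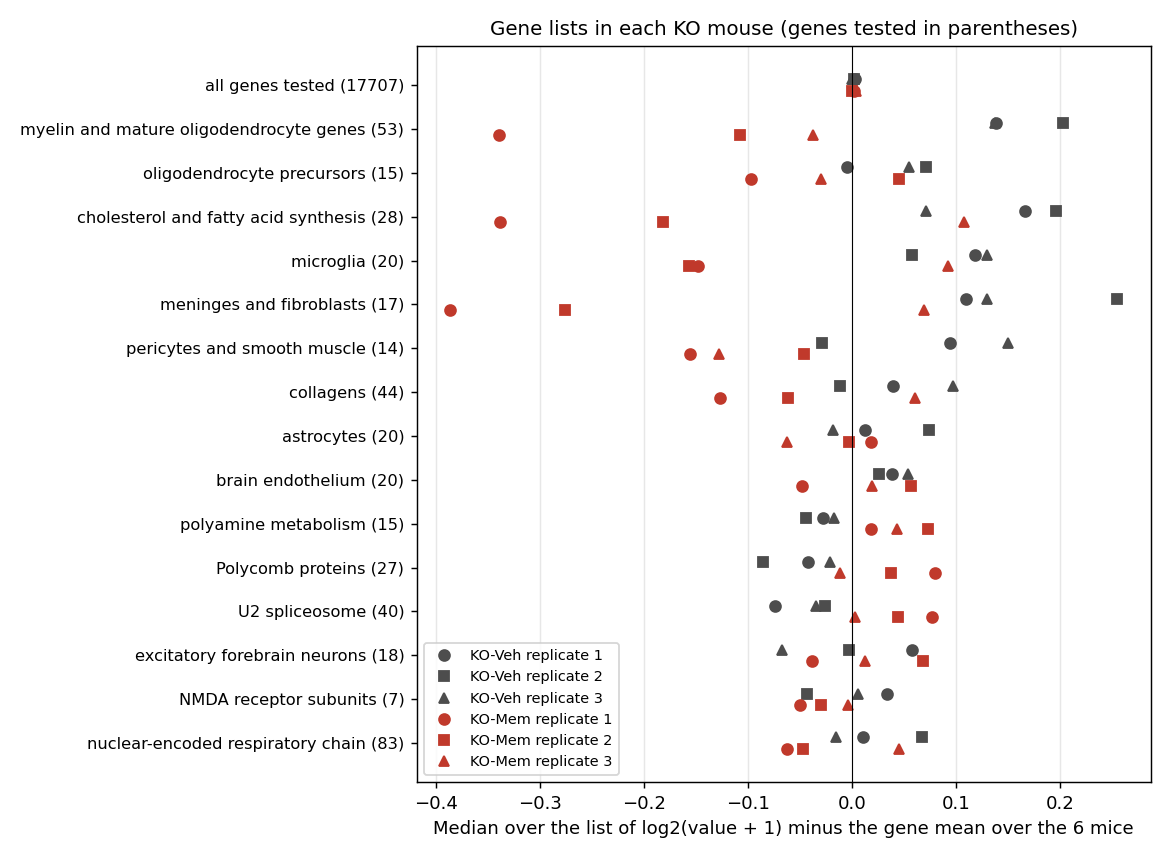
Median deviation of each gene list in each of the 6 KO mice (x axis, log2 units from the mean of the 6 mice; y axis, lists with the number of genes tested; black, KO-Veh; red, KO-Mem; the marker shape gives the replicate). In the myelin list the KO-Mem mice lie at -0.339, -0.108 and -0.037, all left of the KO-Veh mice at 0.139, 0.203 and 0.138, whereas in the cholesterol list KO-Mem replicate 3 lies at 0.108, among the KO-Veh mice.

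Within the list, lipid enzymes and secreted or transport proteins were among the members that differed most. Trf, the iron carrier transferrin made by oligodendrocytes, was 6680, 7329 and 6816 in KO-Veh against 2990, 4030 and 5801 in KO-Mem, a log2 difference of -0.75 ± 0.19 (SE, unadjusted p = 0.00322, limma). Ugt8a, which makes the galactolipids of myelin, was 3806, 4037 and 3820 in KO-Veh against 1701, 2285 and 3483 in KO-Mem, a log2 difference of -0.70 ± 0.20. For Trf and Ugt8a the KO-Mem mice were spread out, with replicate 1 lowest and replicate 3 just below the vehicle mice. Fa2h, the hydroxylase of galactolipid fatty acids (chr8:111345135-111393824), was more even: 2456, 2211 and 2311 in KO-Veh against 1406, 1776 and 1824 in KO-Mem (log2 difference -0.49 ± 0.10, unadjusted p = 0.000802).

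Padi2, a protein arginine deiminase, had a log2 difference of -0.73 ± 0.18, and Pltp, a phospholipid transfer protein, one of -0.62 ± 0.15. Mog, a myelin surface glycoprotein, was 3617, 3834 and 3631 in KO-Veh against 2392, 2529 and 3261 in KO-Mem (log2 difference -0.45 ± 0.10). Cnp, the myelin nucleotide phosphodiesterase, and Mag, an adhesion protein of the innermost myelin layer, had log2 differences of -0.33 ± 0.09 and -0.23 ± 0.06. All of Padi2, Pltp, Mog, Cnp and Mag were lower in each KO-Mem mouse than in each KO-Veh mouse, with unadjusted p of 0.00188 to 0.00482 (limma, Mog and Mag at the ends of that range).

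A smaller difference was seen for Mbp, a major structural protein of compact myelin. Mbp was 120044, 126700 and 126982 in KO-Veh against 108062, 120814 and 122932 in KO-Mem, with overlapping groups and a log2 difference of -0.09 ± 0.05 (unadjusted p = 0.135). The members with positive differences were Ptgds (0.23 ± 0.11), the lipocalin-type prostaglandin D synthase that meningeal cells also make, Apod (0.22 ± 0.14) and Nkx6-2 (0.13 ± 0.16), and none of them reached an unadjusted p under 0.05. Of 15 genes of oligodendrocyte precursors, 1 was lower at an unadjusted p under 0.05 (against 4.54% of all genes), and the list median was -0.093. The summed level of the precursor genes was 21428, 21793 and 21288 in KO-Veh against 18449, 20641 and 20604 in KO-Mem, without overlap. The precursor list medians by mouse overlapped, at -0.005, 0.071 and 0.055 in KO-Veh against -0.097, 0.045 and -0.03 in KO-Mem. Whether the precursor and myelin lists differ was not tested.

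**Figure D2:**
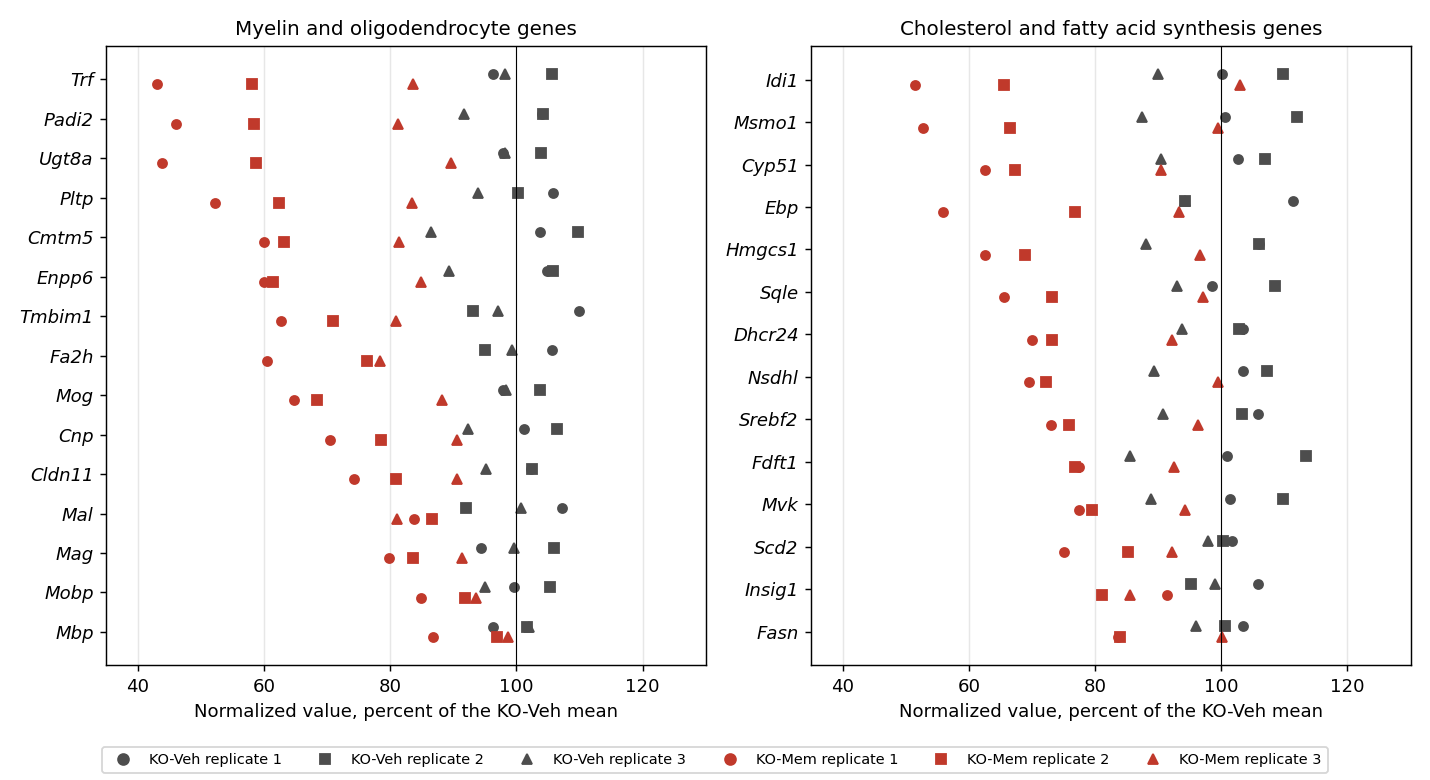
Normalized values of 15 myelin genes (left) and 14 cholesterol and fatty acid synthesis genes (right) in each KO mouse, as a percentage of the KO-Veh mean of that gene (x axis; black, KO-Veh; red, KO-Mem; shapes give replicates). KO-Mem replicate 1 is the lowest or close to it for most genes and replicate 3 the nearest to KO-Veh, with Trf at 2990 in replicate 1 and 5801 in replicate 3 against 6680 to 7329 in KO-Veh.

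Over the fits that leave out 1 mouse, the myelin count was 28 to 40. With KO-Mem replicate 1 left out, 28 of the 53 genes were lower at an unadjusted p under 0.05 (median -0.242), with KO-Mem replicate 3 left out, 40 (median -0.398), and with KO-Veh replicate 3, the mouse with cerebellar transcripts, left out, 36 (median -0.356). Over all genes, 2.59%, 9.57% and 4.22% were lower at that p in these fits. The list was written with the differentially expressed genes of the study for this comparison known, and 5 of its members (Fa2h, Pltp, Padi2, Cmtm5 and Tmbim1) are among them, so the count is not independent evidence of its direction. Among the 48 other members, 29 were lower at an unadjusted p under 0.05, with a median of -0.312. These members were also listed with earlier results of these data known, so their count is not independent either. In WT mice the list median was -0.160, with 19 of 53 members lower and none higher at an unadjusted p under 0.05 (against 2.47% and 1.5% of all genes). The same direction was thus present in WT-M/V, and 11 of the members had an interaction p under 0.05 without adjustment, against 4.76% of all genes.

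The enzymes that make cholesterol and fatty acids were also mostly lower in KO-Mem. Of 28 genes tested, 27 had a negative log2 difference, 16 were lower at an unadjusted p under 0.05 (57.1%, against 4.54% of all genes) and none was higher, and the median was -0.277. Of the 28 genes, 6 were below every KO-Veh mouse (against 6.82% of all genes), since KO-Mem replicate 3 lay within the vehicle range for most of them. The list medians by mouse were 0.166, 0.196 and 0.071 in KO-Veh against -0.338, -0.182 and 0.108 in KO-Mem, so the groups overlapped through that mouse. The count was 5, 4 and 25 without KO-Mem replicates 1, 2 and 3 (against 2.59%, 2.92% and 9.57% of all genes). It was 6, 7 and 17 without KO-Veh replicates 1, 2 and 3 (against 2.85%, 2.87% and 4.22%). The list median stayed between -0.415 and -0.196 in these fits.

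Early steps of the pathway illustrate this. Hmgcs1, the synthase that makes the precursor of mevalonate, was 9514, 9520 and 7902 in KO-Veh against 5610, 6187 and 8682 in KO-Mem (log2 difference -0.42 ± 0.14, SE, unadjusted p = 0.0185, limma). Idi1, the isopentenyl diphosphate isomerase, was 1431, 1568 and 1286 in KO-Veh against 736, 937 and 1471 in KO-Mem (-0.50 ± 0.21). For Hmgcs1 and Idi1 alike, KO-Mem replicates 1 and 2 were below the vehicle range and replicate 3 was inside it.

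Later enzymes followed the same layout. Cyp51, the lanosterol demethylase, was 2382, 2482 and 2099 in KO-Veh against 1451, 1561 and 2100 in KO-Mem, with a log2 difference of -0.46 ± 0.13. Sqle, squalene epoxidase, and Msmo1, a sterol oxidase, had log2 differences of -0.36 ± 0.13 and -0.50 ± 0.20. Srebf2, the transcription factor that drives the sterol genes, was 8000, 7807 and 6856 in KO-Veh against 5509, 5729 and 7277 in KO-Mem (-0.30 ± 0.10).

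Some sterol-regulated genes separated the groups in all 6 mice. Insig1, the sterol-sensing brake on Srebf2, was 2238, 2012 and 2091 in KO-Veh against 1931, 1714 and 1808 in KO-Mem (-0.22 ± 0.07). Scd2, the main fatty acid desaturase of brain, was 42798, 42216 and 41202 in KO-Veh against 31606, 35816 and 38771 in KO-Mem (-0.25 ± 0.07). The exceptions were Lss, the lanosterol synthase, at -0.01 ± 0.06, and Srebf1, which directs fatty acid synthesis, at 0.11 ± 0.20 with widely spread mice. In WT mice the list median was -0.034 with 3 of 28 members lower at an unadjusted p under 0.05 (against 2.47% of all genes). In limma 6 of the 28 members had an interaction p under 0.05 without adjustment, against 4.76% of all genes. Among them were Cyp51 (unadjusted p = 0.0216, limma, all 12 mice) and Hmgcs1 (0.0412).

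Promoters are shown for genes of this list because their values ran in parallel over the 6 mice; Hmgcs1, Idi1 and Cyp51 were chosen after their values were seen. The windows hold 250 bases before and 50 after the annotated start, 5′ to 3′ on the gene's strand, from RefSeq on GRCm38.p6: Hmgcs1 at chr13:119690101-119690400 (plus strand), Idi1 at chr13:8885356-8885655 (plus strand) and Cyp51 at chr5:4104648-4104947 (minus strand). Capitals mark the CCAAT box on either strand (CCAAT or ATTGG), the element bound by the factor NF-Y.
Hmgcs1: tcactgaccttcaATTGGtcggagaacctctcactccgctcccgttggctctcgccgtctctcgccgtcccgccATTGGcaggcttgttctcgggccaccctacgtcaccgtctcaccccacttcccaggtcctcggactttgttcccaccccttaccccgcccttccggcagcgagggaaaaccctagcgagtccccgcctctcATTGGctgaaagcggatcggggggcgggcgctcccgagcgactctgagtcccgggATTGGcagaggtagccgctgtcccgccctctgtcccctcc
Idi1: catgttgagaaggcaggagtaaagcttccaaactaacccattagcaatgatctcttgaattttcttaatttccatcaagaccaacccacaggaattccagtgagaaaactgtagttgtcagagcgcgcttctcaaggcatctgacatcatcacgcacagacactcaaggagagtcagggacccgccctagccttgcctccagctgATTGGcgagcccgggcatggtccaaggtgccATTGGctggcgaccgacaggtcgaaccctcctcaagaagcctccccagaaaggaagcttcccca
Cyp51: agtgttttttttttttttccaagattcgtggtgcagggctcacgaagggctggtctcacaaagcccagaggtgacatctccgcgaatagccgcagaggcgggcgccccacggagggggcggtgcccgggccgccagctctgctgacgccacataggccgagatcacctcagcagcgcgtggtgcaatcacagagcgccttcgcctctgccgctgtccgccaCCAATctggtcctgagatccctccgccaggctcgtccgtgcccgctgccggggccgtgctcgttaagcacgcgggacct
Hmgcs1 held 4 such elements, Idi1 2 and Cyp51 1. The element was in 19 of the 25 windows matched to 20 genes of the list (76%), in 29 of the 58 windows matched to 39 myelin genes (50%), and in 37.4% of all 32851 windows, or 37.2% of those of the genes tested. A match is only a match of letters and was not tested as a site.

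Microglial markers were lower on the median but differed in extent. Of 20 tested, 17 had a negative log2 difference, 5 were lower at an unadjusted p under 0.05 and 1 was higher (against 4.54% and 4.34% of all genes), and the median was -0.221. Olfml3, a secreted glycoprotein enriched in microglia, was 358, 353 and 360.4 in KO-Veh against 101, 178 and 259.6 in KO-Mem (log2 difference -1.09 ± 0.28, SE, unadjusted p = 0.00353, limma). Fcrls, an Fc receptor-like gene of resident microglia, was 402, 443 and 287 in KO-Veh against 68.5, 117 and 335 in KO-Mem, and Itgam, the integrin CD11b, was 508, 586 and 447 in KO-Veh against 185, 248 and 493 in KO-Mem. For both genes KO-Mem replicate 3 was inside the vehicle range and replicates 1 and 2 were below it.

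Other microglial genes had smaller differences. P2ry12, the purinergic receptor of surveying microglia, was 731, 837 and 689 in KO-Veh against 366, 462 and 833 in KO-Mem (unadjusted p = 0.0644, limma). Csf1r, the receptor that microglia need to survive, was 2732, 2582 and 2942 in KO-Veh against 2538, 2091 and 2196 in KO-Mem, without overlap. Cd68, a lysosomal protein of phagocytes, was higher, at 207, 192 and 219 in KO-Veh against 315, 315 and 219 in KO-Mem. Without KO-Mem replicate 3, 11 microglial genes were lower at an unadjusted p under 0.05 (against 9.57% of all genes), and with any other mouse left out, 4 or 5 (against 2.59% to 4.22%).

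Meningeal and fibroblast genes were lower as well, with 7 of 17 at an unadjusted p under 0.05 (against 4.54% of all genes) and a median of -0.351. In WT mice 7 of 17 were also lower at that p (against 2.47% of all genes), with a median of -0.215. Lum, a small proteoglycan of collagen fibrils, was 60.2, 81.3 and 64.2 in KO-Veh against 27.9, 26.9 and 55.9 in KO-Mem. Ogn, a related proteoglycan, was 172, 191 and 188 in KO-Veh against 142, 125 and 150.5 in KO-Mem, and Col3a1, a fibrillar collagen, was 363, 296 and 308 in KO-Veh against 131, 138 and 337 in KO-Mem. The groups separated in Lum and Ogn and overlapped in Col3a1. The count was 12 without KO-Mem replicate 3 (against 9.57% of all genes). It was 2 without KO-Mem replicate 1 or 2, 4 and 6 without KO-Veh replicates 1 and 2, and 3 without KO-Veh replicate 3 (against 2.59% to 4.22%).

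Collagens as a family went in both directions. Of 44 tested, 4 were higher and 4 lower at an unadjusted p under 0.05 (against 4.34% and 4.54% of all genes), and the median was -0.131. In WT mice 10 were lower at that p (against 2.47% of all genes), with a median of -0.208. Col24a1, a fibrillar collagen expressed in neurons of the cortex, was 307, 272 and 279 in KO-Veh against 366, 397 and 398 in KO-Mem (log2 difference 0.44 ± 0.10, SE), whereas its WT means were 361 under vehicle and 266 under memantine (interaction unadjusted p = 0.000169, limma). Of 77 other matrix genes, 12 were lower and 4 higher at that p, with a median of -0.077, and 10 and 4 of 69 once the oligodendrocyte and meningeal genes were taken out. Col9a3 and Matn1 are on the study's own gene list, and without them 3 of 43 collagens were lower and 3 of 76 other matrix genes higher. Over the fits that leave out 1 mouse, 1 to 12 collagens and 7 to 24 of the other matrix genes were lower, the lowest counts without KO-Mem replicate 1 (against 2.59% of all genes) and the highest without KO-Mem replicate 3 (against 9.57%).

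The markers of tissue that varies with dissection and perfusion were measured beside these groups. Choroid plexus genes had a median of -0.349 with 2 of 16 lower at an unadjusted p under 0.05 (against 4.54% of all genes). The count was 6 without KO-Mem replicate 3, 5 without KO-Veh replicate 3 and 0 without KO-Mem replicate 1 (against 9.57%, 4.22% and 2.59% of all genes), with medians of -0.517, -0.48 and -0.167. Their summed level was 25739, 28488 and 21156 in KO-Veh against 14458, 19587 and 25740 in KO-Mem. Of 6 blood genes 1 was lower at that p, and 5 in WT mice (against 2.47% of all genes). The blood count was 5 without KO-Mem replicate 3 or KO-Veh replicate 3 (against 9.57% and 4.22%) and none without any other mouse. Their summed level was 15701, 20504 and 8964 in KO-Veh against 7161, 8830 and 14142 in KO-Mem. Both sums were lowest in KO-Mem replicate 1 and overlapped between groups, and none of the blood or choroid plexus genes was at 0 in a KO mouse.

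The summed level of the 53 myelin genes was 436831, 457102 and 436383 in KO-Veh against 362057, 393560 and 417650 in KO-Mem, without overlap. The 20 microglial genes summed to 14083, 14044 and 14476 in KO-Veh against 11959, 11636 and 13467 in KO-Mem, and the 14 pericyte and smooth muscle genes to 8148, 7937 and 8743 and to 7219, 7090 and 7146, both also without overlap. Ependymal genes, of which there were 11, summed to 918, 896 and 935 in KO-Veh against 786, 843 and 833 in KO-Mem, again without overlap. The list medians by mouse, in which each gene counts alike, did overlap for the microglial and ependymal genes. In the microglial list KO-Mem replicate 3 was at 0.092 against 0.058 in KO-Veh replicate 2. In the ependymal list KO-Mem replicate 2 was at 0.038 against 0.032 in KO-Veh replicate 2. The 17 meningeal genes in the table summed to 26070, 26317 and 28408 in KO-Veh against 29864, 29804 and 26681 in KO-Mem, a sum to which Ptgds, the member with a positive difference, contributed most. Astrocyte, endothelial, excitatory neuron, interneuron and striatal marker sums overlapped between the groups. The part of tissue composition in the lower myelin, microglial and matrix values was not tested.

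**Figure D3:**
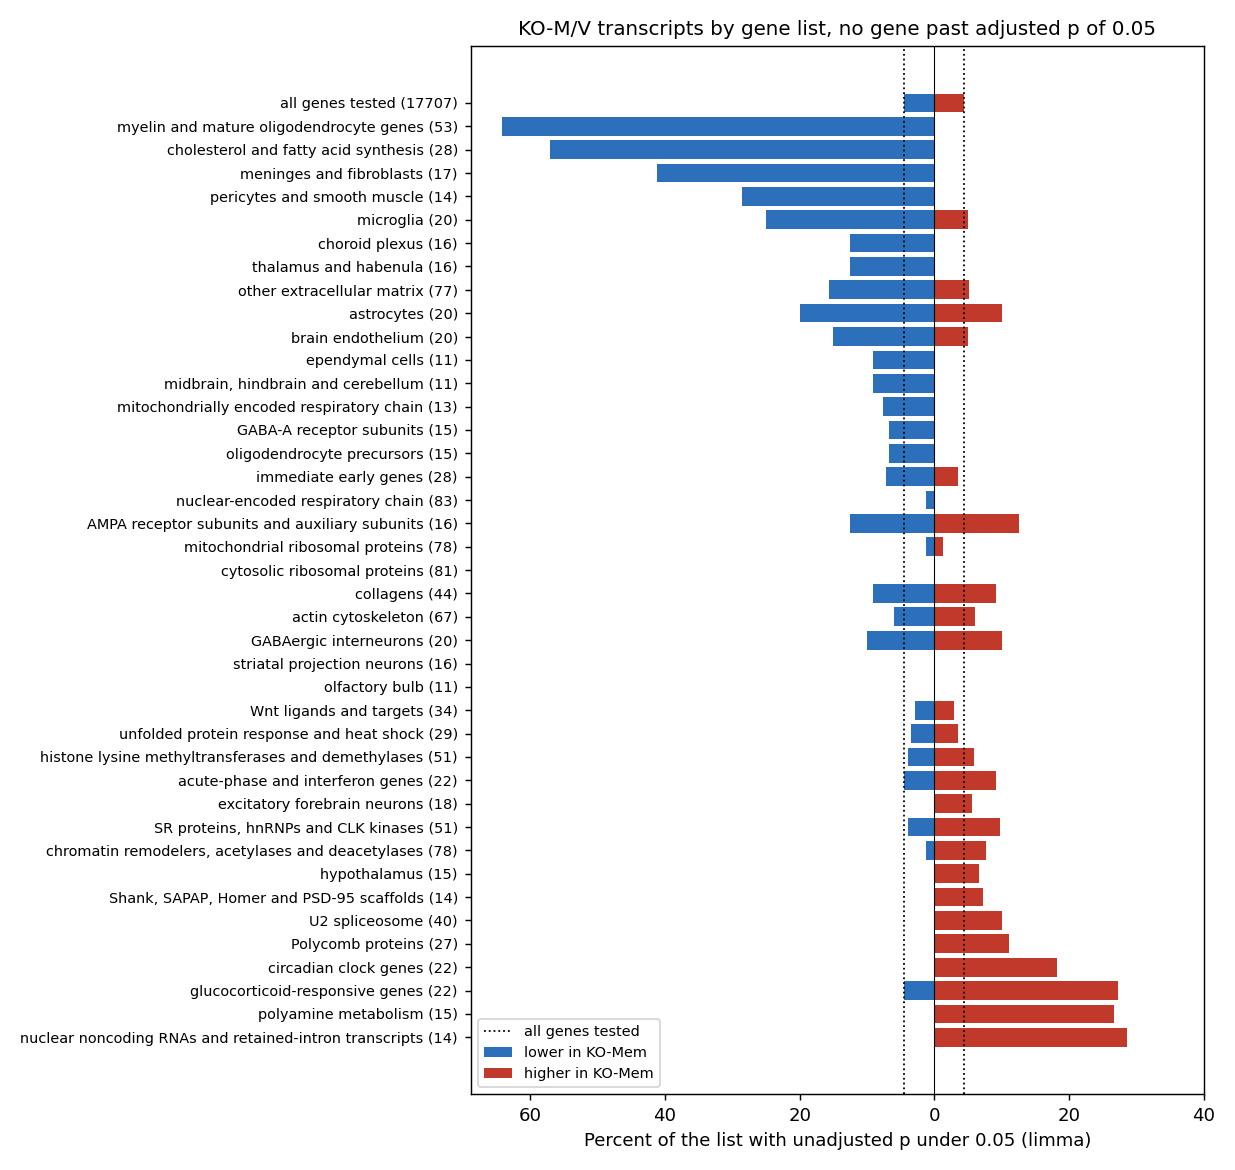
Share of each list with 10 or more tested genes at an unadjusted p under 0.05 in limma (x axis, percent; blue bars to the left, lower in KO-Mem; red bars to the right, higher in KO-Mem; dotted lines, all genes tested at 4.54% and 4.34%; genes tested in parentheses). The myelin list extends to 64.2% and the cholesterol list to 57.1% on the lower side, and the nuclear noncoding RNA list to 28.6% on the higher side.

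Other lists held members higher in KO-Mem. Polyamine metabolism had 4 of 15 genes higher at an unadjusted p under 0.05 (26.7%, against 4.34% of all genes), a median of 0.071, and list medians of -0.028, -0.044 and -0.017 in KO-Veh against 0.018, 0.073 and 0.043 in KO-Mem. The 4 genes were Sat1, described above, Smox, Sat2 and Azin2. Smox, the oxidase that turns spermine back into spermidine, was 1642, 1372 and 1509 in KO-Veh against 2498, 2193 and 1495 in KO-Mem (log2 difference 0.42 ± 0.16, SE), and Sat2, a relative of Sat1, was 148, 139 and 192 in KO-Veh against 266, 223 and 179 in KO-Mem. Odc1, which starts polyamine synthesis, was 1747, 1916 and 1710 in KO-Veh against 1748, 1777 and 1793 in KO-Mem, without separation. Without Sat1, which is on the study's own gene list, the count was 3 of 14. It was 1 of 15 without KO-Mem replicate 1 or 2 or KO-Veh replicate 2 (against 2.04%, 2.48% and 2.62% of all genes). It was 2, 4 and 5 without KO-Veh replicates 1 and 3 and KO-Mem replicate 3 (against 2.75%, 4.32% and 9.14%).

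Glucocorticoid-responsive genes had 6 of 22 higher and 1 lower at an unadjusted p under 0.05 (against 4.34% and 4.54% of all genes), with a median of 0.092 in both genotypes. Fkbp5, a co-chaperone of the glucocorticoid receptor, was 1422, 1578 and 1770 in KO-Veh against 3313, 2269 and 1790 in KO-Mem. Plin4, a lipid droplet protein, was 119, 189 and 152 in KO-Veh against 1287, 492 and 181 in KO-Mem, and Cdkn1a, a cell cycle inhibitor, was 369, 458 and 338 in KO-Veh against 982, 607 and 425 in KO-Mem. In Fkbp5, Plin4 and Cdkn1a, KO-Mem replicate 1 was the highest mouse and replicate 3 lay in or next to the vehicle range. The gene lower at that p was Pdk4, a kinase that restrains pyruvate oxidation, and Tsc22d3, another target of the receptor, overlapped between groups, with 1553, 2274 and 1671 in KO-Veh against 1359, 1287 and 1737 in KO-Mem. The higher count was 3 without KO-Mem replicate 1 or KO-Veh replicate 1 (against 2.04% and 2.75% of all genes), 4 without KO-Veh replicate 3 (4.32%), and 9 without KO-Mem replicate 3 (9.14%).

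Lcn2, a member of that list and a secreted siderophore-binding protein of reactive astrocytes and the acute phase, was low in all mice, at 5.07, 3.49 and 19.5 in KO-Veh against 46.6, 48.8 and 44.8 in KO-Mem (log2 difference 2.53 ± 0.52, SE, unadjusted p = 0.000889, limma). The KO-Mem mice were close to each other and all above KO-Veh. Only 19.5 of the KO-Veh values exceeded 10, so Lcn2 met the mean filter of 10 mainly through the KO-Mem mice. Its place in the count thus follows in part from that filter. The mean of Lcn2 was 8.48 in WT-Veh and 11.1 in WT-Mem. Lcn2 is on the study's own gene list for this comparison, so its part in the count is not independent. Without it 5 of 21 glucocorticoid-responsive genes were higher (against 4.34% of all genes), on a list also chosen with earlier results known.

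Lists of chromatin and RNA processing genes had medians slightly above that of all genes. Polycomb proteins had a median of 0.108, with 3 of 27 higher and none lower at an unadjusted p under 0.05 (11.1%, against 4.34% of all genes) and 6 above every KO-Veh mouse (against 7.1% of all genes). The genes of the U2 spliceosome had a median of 0.077, with 33 of 40 positive, 4 higher and none lower at that p. Histone methyltransferases and demethylases had a median of 0.090 with 3 of 51 higher and 2 lower, near the share over all genes. Chromatin remodelers had 6 of 78 higher and 1 lower (median 0.042), and SR proteins, hnRNPs and CLK kinases 5 of 51 higher and 2 lower (median 0.033). The list medians by mouse overlapped between groups for the histone enzymes and for the SR, hnRNP and CLK genes. Per mouse, the Polycomb medians were -0.042, -0.085 and -0.021 in KO-Veh against 0.08, 0.038 and -0.011 in KO-Mem, and those of the U2 spliceosome were -0.074, -0.026 and -0.034 and 0.077, 0.044 and 0.003. These counts moved with single mice. Without KO-Mem replicate 1, the genes higher were 2 Polycomb, 1 spliceosome, 0 histone enzyme, 4 remodeler and 0 SR, hnRNP and CLK genes (against 2.04% of all genes). Without KO-Mem replicate 3 they were 7, 12, 16, 14 and 7 (against 9.14%).

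Sf3b1, the core subunit of the U2 particle, was 8968, 9070 and 9264 in KO-Veh against 11987, 11032 and 9628 in KO-Mem (log2 difference 0.25 ± 0.07, SE, unadjusted p = 0.00734, limma). Cbx7, a Polycomb reader of methylated histone H3, was 1490, 1445 and 1588 in KO-Veh against 2005, 1944 and 1615 in KO-Mem, and Jarid2, a cofactor of the Polycomb methyltransferase, was 1604, 1588 and 1721 and 1962, 1891 and 1743. These genes separated the groups, with replicate 3 again the lowest KO-Mem mouse. Leng8 and the long noncoding RNA Meg3, which stay largely in the nucleus, were among 4 of 14 nuclear transcripts higher at an unadjusted p under 0.05 (against 4.34% of all genes). That count was 2 to 5 with a mouse left out (against 2.04% to 9.14% of all genes). Leng8 was 16107, 15705 and 17780 in KO-Veh against 21299, 19754 and 17550 in KO-Mem. Malat1, another of them, overlapped widely between groups (log2 difference -0.02 ± 0.18).

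Circadian clock genes had 4 of 22 higher at an unadjusted p under 0.05 (against 4.34% of all genes) and none lower. The list as a whole was balanced, with 12 positive and 10 negative members and a median of 0.015. With a mouse left out the count was 1 to 5 (against 2.04% to 9.14% of all genes), the lowest without KO-Mem replicate 1. Cry1, a repressor of the clock, was 564, 587 and 568 in KO-Veh against 725, 659.8 and 744 in KO-Mem, with no overlap, and Nr1d1, a nuclear receptor of the clock loop, was 2998, 2963 and 3092 in KO-Veh against 4338, 3496 and 3156 in KO-Mem. The hour of sampling was not given in the sources used here.

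The receptor that memantine blocks showed no gene below an unadjusted p of 0.05 among 7 NMDA receptor subunit genes. Grin1, the obligatory subunit, was 22119, 22147 and 21582 in KO-Veh against 25268, 23516 and 22420 in KO-Mem (log2 difference 0.11 ± 0.05, SE, unadjusted p = 0.054, limma). Grin2a and Grin2b, the main glutamate-binding subunits of forebrain, had log2 differences of 0.03 ± 0.06 and 0.02 ± 0.06. Grin2c was at -0.20 ± 0.09, Grin2d at -0.14 ± 0.07, Grin3a at -0.02 ± 0.07 and the scarce Grin3b at -0.43 ± 0.52, with 6.53 to 27.1 per mouse. Grin1 was above and Grin2d below every KO-Veh mouse in all KO-Mem mice, and the other subunits overlapped. Without KO-Mem replicate 3, 1 subunit was higher and 2 were lower at that p (against 9.14% and 9.57% of all genes).

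Medians of the other synaptic receptor and scaffold lists lay within 0.04 of 0. Among 16 AMPA receptor and auxiliary genes, 2 were higher and 2 lower at an unadjusted p under 0.05. These are 12.5% in each direction, against 4.34% higher and 4.54% lower over all genes. Gria2, the subunit that makes the channel impermeable to calcium, was at 0.12 ± 0.04 and Gria4 at -0.15 ± 0.06 (log2 difference ± SE). None of these 16 genes reached that p without KO-Mem replicate 1 or 2 or KO-Veh replicate 2. Of 14 Shank, SAPAP, Homer and PSD-95 genes 1 was higher (7.14%), and of 15 GABA-A receptor subunits 1 was lower (6.67%). Immediate early genes, which report recent neuronal activity, had 1 higher (3.57%) and 2 lower (7.14%) of 28 and a median of -0.002, beside 0.190 in WT mice. That median was a balance of uneven mice, with list medians of 0.397, 0.07 and -0.405 in KO-Veh against -0.286, 0.007 and 0.23 in KO-Mem, and it ran from -0.208 without KO-Veh replicate 3 to 0.175 without KO-Veh replicate 1. Of 83 nuclear-encoded respiratory chain genes 1 was lower (1.2%), but 15 were lower without KO-Mem replicate 3 (against 9.57% of all genes) and 0 to 2 with any other mouse left out. Their median was -0.044, with 57 negative and 26 positive members, and ran from -0.077 to -0.019 with a mouse left out. The list medians by mouse overlapped between groups. Of 81 cytosolic ribosomal protein genes none differed at that p in either direction.

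Memantine in WT mice gave fewer genes at the same unadjusted p: 263 higher (1.5%) and 434 lower (2.47%) of 17564, with 2 past an adjusted p of 0.05 (0.0114%, limma), against 0 in KO. The interaction, which asks whether memantine acted differently in the genotypes, had 840 genes of 17655 at an unadjusted p under 0.05 (4.76%) and 0 past an adjusted p of 0.05 (0%), with a smallest adjusted p of 0.947. A difference of the memantine effect between genotypes was thus not detected for any gene. The KO-M/V and WT-M/V comparisons share no mice. Over the 17292 genes tested in both, their log2 differences had a Pearson r of 0.006. Of the 1546 genes with an unadjusted p under 0.05 in KO-M/V that were tested in both, 61.8% had the same sign in WT-M/V, beside 55% of all genes, and 98 had the same sign and an unadjusted p under 0.05 there. Those higher in KO had a median log2 difference of 0.268 in KO and 0.023 in WT, and those lower had -0.341 and -0.064. The KO medians are larger by the way these genes were chosen.

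**Figure D4:**
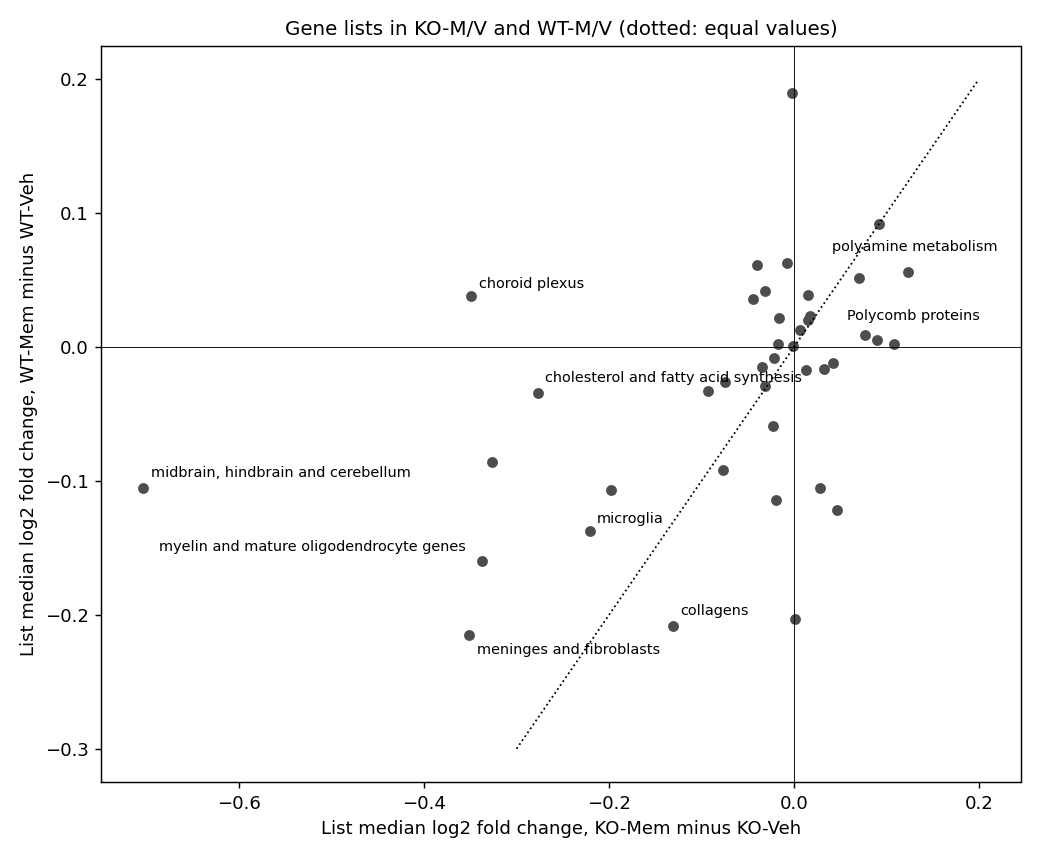
Median log2 difference of each list with 10 or more tested genes for memantine against vehicle in KO mice (x axis) and in WT mice (y axis); the dotted line marks equal values. The myelin list lies at -0.337 in KO and -0.160 in WT, the cholesterol list at -0.277 and -0.034, and the choroid plexus list at -0.349 and 0.038.

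Leaving out KO-Mem replicate 3 was the sole change of the mice in the comparison that let genes pass. With 2 KO-Mem and 3 KO-Veh mice, 97 genes passed an adjusted p of 0.05 (0.547%, limma), 39 higher and 58 lower in KO-Mem, and 90 of them were protein-coding. In 55 of the 97 the left-out mouse lay within the KO-Veh range, and in 94 it lay nearer to the KO-Veh mean than to the mean of the other KO-Mem mice. With all 6 mice, 39 of the 97 separated the groups without overlap (against 13.9% of all genes). An unadjusted p under 0.05 was reached by 92 of them (against 8.88%). The 97 were chosen on mice that are among these 6, so both counts follow largely from the choice. Such a fit was run without each mouse in turn. Since KO-Mem replicate 3 is the nearest to KO-Veh, the calls made without it do not stand for the group. No label sets KO-Mem replicate 3 apart from the other mice of its group.

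The 58 lower genes included 12 of the myelin list, 8 of the cholesterol list, 5 microglial markers and 3 collagens, against 0.327% of all genes called lower in that fit. Mog and Trf had an adjusted p of 0.0163 in that fit, Pltp 0.0165 and Cyp51 0.0334. The 39 higher genes (0.22% of all) held Sat1 and Smox of the polyamine list, Plin4 of the glucocorticoid list, Matn1, Sf3b1 and Nsd1, a histone methyltransferase, together with Armc9, a protein of primary cilia, and Dhx37, an RNA helicase of ribosome assembly. Armc9 was 1166, 1140 and 1165 in KO-Veh against 1596, 1535 and 1324 in KO-Mem, and Dhx37 was 494, 513 and 483 and 786, 692 and 595. Armc9 and Dhx37 separated the groups with all 6 mice as well.

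**Figure D5:**
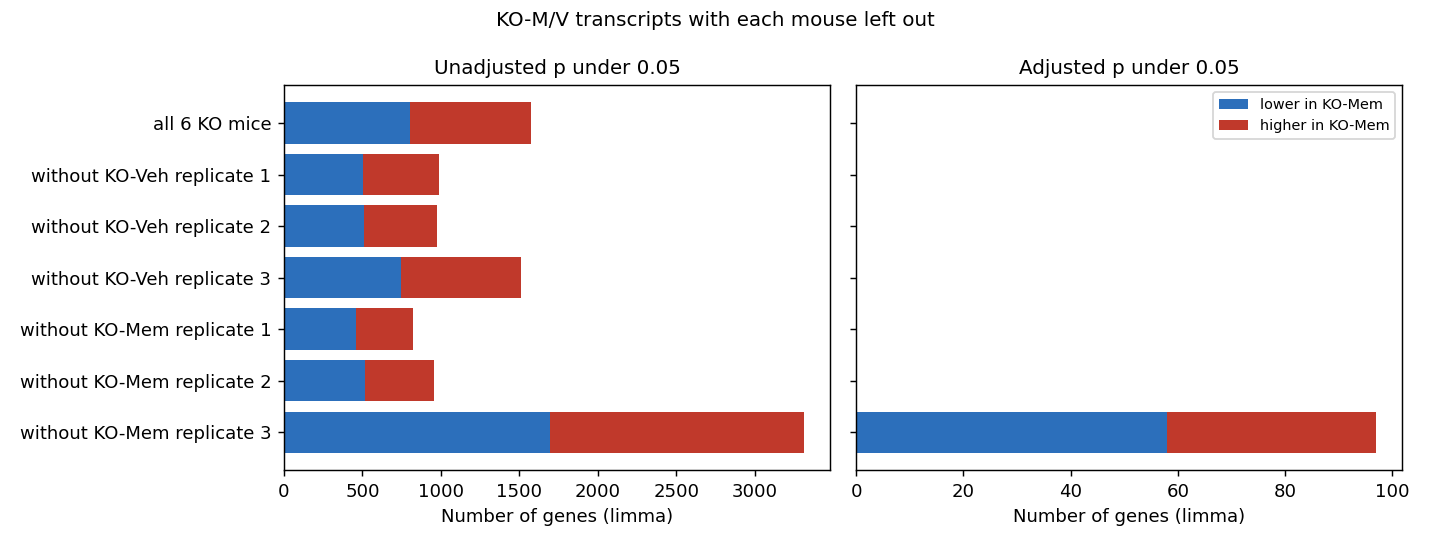
Number of KO-M/V genes at an unadjusted p under 0.05 (left) and an adjusted p under 0.05 (right) with all 6 KO mice and with each mouse left out (x axis, genes in limma; blue, lower in KO-Mem; red, higher in KO-Mem). The adjusted count is 97 without KO-Mem replicate 3 and 0 in the other fits, and the unadjusted count runs from 821 without KO-Mem replicate 1 to 3315 without KO-Mem replicate 3.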

How the data were processed

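RNA from 12 individual mice (4 groups of 3) was sequenced by the study after poly-A selection. The authors deposited signal values, which are gene-level estimated counts from Salmon 1.1.0 (quasi-mapping with GC bias correction, GRCm38) that tximport summarised and that were scaled by the normalization factors of DESeq2, per the labels and methods. The submitters' notes name R 3.6.2 and DESeq2 1.26.0. The annotation release and the gene filter are not given in the sources used here. Whole reads cannot be recovered from the values, so no count model was used, and depth per mouse was not measured.

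Groups and replicate numbers were taken from the labels. Genes with a mean of at least 10 over the mice of a fit were tested with limma 3.58.1 (R 4.3.3; lmFit and eBayes with trend) on log2(value + 1), with Benjamini-Hochberg adjustment over all genes tested and a threshold of 0.05. The memantine effect was fitted on the 6 mice of each genotype and the interaction on 12. P-values measure the spread between these mice. An exact permutation test of 3 mice against 3 cannot go below 0.1 and was not used. The script was tested on simulated data. Symbols, positions, transcript lengths and GC content came from GENCODE M21, which matched 19295 of 19312 genes.

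Named genes were, among genes with a mean of at least 50 and no overlap between groups, the 8 largest and 8 smallest moderated statistics and the 4 largest and 4 smallest log2 differences, the 6 genes past the threshold in most fits without 1 mouse, up to 2 genes at each end of each list, and every NMDA receptor subunit. Other members of the 42 lists and the cerebellar genes were named after their values were seen. The comparison, lists and rules were chosen with earlier results of these data known. Alternatives tried were other pseudocounts and filters, 12 mice in the fit, a replicate block, no trend, array weights, quantile normalization, median centring, removal of length and GC trends, and leaving out each mouse. Some genes of the lists are counted but not reported by name here.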

Additional observations from a re-analysis of the deposited data

How the results depend on the processing

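For the KO-M/V comparison, 0 genes passed an adjusted p of 0.05 under every alternative that kept all 6 mice: pseudocounts of 0.5 and 5, a mean of at least 50, no filter, 12 mice in a joint fit, no trend of the prior variance, array weights, quantile normalization, median centring, and removal of length and GC trends with and without the replicate block. Over the fits that left out a mouse the count was 0 to 97, with 97 only without KO-Mem replicate 3. Genes at an unadjusted p under 0.05 numbered 1573 in the 6 mice, 821 to 3315 with a mouse left out and 4217 with array weights, which gave KO-Mem replicate 2 a weight of 4.43 and replicates 1 and 3 weights of 0.484 and 0.465. The median difference of all genes was 0.011 after median centring. After removal of length and GC trends the myelin median was -0.338. Some list medians near 0 changed sign: mitochondrially encoded respiratory chain genes went from 0.001 to -0.04 and hypothalamus genes from 0.013 to -0.027.

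With the replicate block, 0 KO-M/V genes passed and 1130 had an unadjusted p under 0.05. Same-numbered KO mice did not deviate together (r over genes of -0.036, -0.051 and -0.193 for numbers 1, 2 and 3). Pairs with different numbers ran from -0.146 to 0.184, the highest for KO-Veh replicate 2 with KO-Mem replicate 3. Whether any of the mice were handled together cannot be told from these values.

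In WT-M/V, where 2 genes passed, the count was 0 with a mean of at least 50 and with 12 mice in the fit, and 1 with a pseudocount of 0.5, with a pseudocount of 5 and with the replicate block. Leaving out a mouse gave 1 to 3. The interaction had 0 genes past an adjusted p of 0.05, and 0 to 4 with a mouse left out, 4 without KO-Mem replicate 3 and 1 each without KO-Veh replicate 1 and WT-Veh replicate 2.

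Of 83 genes recomputed under 18 alternatives, 79 kept the sign of their difference throughout. The exceptions had differences near 0: Grin2a (-0.011 to 0.088 over the fits without a mouse), Grin2b (-0.019 with array weights, and -0.046 to 0.059 without a mouse, below 0 without KO-Mem replicate 1 and, at -0.018, without KO-Veh replicate 2), Grin3a (-0.061 to 0.023, with 0.009 without KO-Veh replicate 1) and Shank2 (-0.083 to 0.033, with 0.004 and 0.033 without KO-Mem replicates 1 and 2, 0.016 and 0.005 without KO-Veh replicates 1 and 2). The cause was not tested. List counts without KO-Mem replicates 1 and 3, without KO-Veh replicate 3, and without the genes of the study's own list were added after the data were seen. Depth per mouse is not known, and 3 mice per group limit what can pass.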
